A study of Triticum turgidum subsp. durum with 20 samples.

Results

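WAPO1 and LFY are genes that affect how many spikelets a wheat spike bears, and durum wheat carries each of them as an A-genome and a B-genome copy (homoeologs). The 4 gene models described here were chosen by identifier, and they are 4 of the 190381 counted gene models (A genome, B genome and unanchored sequence). They are WAPO-A1 (TraesCS7A02G481600), WAPO-B1 (TraesCS7B02G384000), LFY-A (TraesCS2A02G443100) and LFY-B (TraesCS2B02G464200). All 4 passed the filter on low counts and were among the 48336 gene models tested. RNA came from dissected apices of the durum wheat cultivar Kronos (genomes AABB), which carries a spring VRN-A1 allele with a deletion in intron 1 and the Ppd-A1a allele of reduced photoperiod sensitivity, so every group shares both alleles. Plants grew in long days of 16 h light and 8 h dark at 23 and 17 ℃. The apices belonged to 5 stages of the Waddington scale. W1 is the vegetative meristem and W2 the double ridge, at which spikelet ridges appear. Glumes begin to form at W3.0 and lemmas at W3.25, and W3.5 is the terminal spikelet stage, after which no more spikelets are added. The study's methods name W2 and W3.0 early double ridge and double ridge instead, so the stages are called here by their Waddington numbers. Each stage had 4 libraries, 20 in total, and the study calls them biological replicates. A library held a pool of apices, some 20 of them for W1 or W2 and some 12 from W3.0 onwards, so pool size and stage cannot be told apart between W2 and W3.0. The sources used here give no plant age and do not say whether the pools came from separate sowings, so p-values measure the spread between these pools, which may be partly technical.

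WAPO1 is the wheat relative of rice ABERRANT PANICLE ORGANIZATION and Arabidopsis UNUSUAL FLORAL ORGANS. It encodes an F-box protein, the subunit that selects targets for an SCF ubiquitin ligase, although in Arabidopsis the protein is best known as a partner of LEAFY. LFY encodes a plant-specific transcription factor that in Arabidopsis gives flower meristems their identity and, together with the F-box protein, switches on B-class MADS-box genes. In the grasses both genes are better known for keeping the inflorescence meristem producing branches or spikelets, and in wheat variation in WAPO1 is a known source of differences in spikelet number.

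On the IWGSC RefSeq v1.0 assembly, WAPO-A1 lies on chromosome 7A between 674081462 and 674082918 (1457 bp) and WAPO-B1 on chromosome 7B between 649950255 and 649951851 (1597 bp). LFY-A lies on chromosome 2A between 693231117 and 693234977 (3861 bp) and LFY-B on chromosome 2B between 658198754 and 658202018 (3265 bp). All 4 lie on the plus strand, and 0 other gene models overlap any of them. Counting ignored strand and took in introns as well as exons. Only uniquely placed reads were counted, so reads that fit both homoeologs equally well are missing from both.

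Library totals ranged from 22229388 to 29655553 counts (median 25121584.5). WAPO-A1 was read 6 to 48 times per library and WAPO-B1 33 to 107 times, against 67 to 1127 times for LFY-A and 120 to 975 times for LFY-B. At the mean count of a stage, sampling of reads alone gives a coefficient of variation of 16.6 to 28.9% for WAPO-A1, and the observed values over the 4 libraries of a stage were 14.9 to 37.3%. For LFY-A the corresponding ranges were 3.07 to 10.3% and 4.40 to 15.4%. The WAPO-A1 values are therefore the least precise of the 4. W1 replicate 1 stood slightly apart from the rest: its mean correlation with the other libraries of its stage was 0.981 (0.985 to 0.989 elsewhere), and its scaling factor was the lowest, at 0.890. The genes chosen as apex markers had reads at all 5 stages, but few in the case of TtCLV3. AP1-B1 (VRN-B1), the B copy of the AP1-clade gene that promotes the change to an inflorescence meristem, averaged 1.15 TPM at W1 and 11.4 to 25.7 TPM from W2 on. Its level thus changed with stage and is no measure of the share of apex tissue. The TtCLV3 pair, relatives of a stem cell signal of the meristem, had stage means of 0.44 to 4.73 TPM (A copy) and 0.92 to 1.53 TPM (B copy). The A copy had only 3 to 5 reads per library at W1, and the B copy 3 to 17 over all libraries.

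Levels are given as TPM, the count per base of gene span scaled to the same sum in each library, so that genes of different length can be compared. Fold changes are those of edgeR after TMM scaling, and they can differ from ratios of mean TPM. A gene was called a differentially expressed gene (DEG) only if it passed 0.01 after Benjamini-Hochberg adjustment in both the quasi-likelihood test of edgeR and the Wald test of DESeq2, in the same direction.

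Both LFY copies had their highest level at W3.0, after a steep rise from the vegetative meristem, whereas WAPO1 was highest at the last 2 stages. LFY-A had 2.41, 1.68, 2.31 and 2.34 TPM in the 4 W1 libraries (replicates 1 to 4) and 7.85, 8.60, 10.3 and 10.3 TPM at W2. At W3.0 it reached 25.98, 27.9, 27.7 and 29.1 TPM, above all other libraries. The W3.25 libraries then had 20.7, 20.9, 18.9 and 20.4 TPM and the W3.5 libraries 16.1, 16.7, 14.5 and 18.3 TPM. No 2 stages overlapped in LFY-A: in all 10 pairs of stages every library of one stage was above every library of the other. From W1 to W3.5 in order, the stage means ± SD (n = 4) were 2.19 ± 0.338, 9.26 ± 1.23, 27.7 ± 1.29, 20.2 ± 0.891 and 16.4 ± 1.54 TPM, so that W1 was at 7.90% and W3.5 at 59.3% of the peak.

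LFY-B had the same order of stages, with later means nearer to its peak. Its 4 libraries had 4.43, 3.57, 4.13 and 4.81 TPM at W1 and 10.9, 13.1, 10.8 and 14.4 TPM at W2. At W3.0 they had 29.5, 27.1, 28.4 and 31.1 TPM. The 3 stages did not overlap. The W3.25 libraries had 24.8, 26.1, 24.2 and 26.02 TPM and the W3.5 libraries 24.1, 24.9, 21.96 and 27.6 TPM, so that the last 2 stages overlapped with each other, and W3.5 with W3.0. Stage means ± SD (n = 4) were 4.24 ± 0.526, 12.3 ± 1.76, 29.0 ± 1.70, 25.3 ± 0.926 and 24.6 ± 2.32 TPM, and W3.5 kept 84.9% of the peak.

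WAPO-A1 was the lowest of the 4 genes at every stage. Its W1 libraries had 0.960, 0.400, 0.697 and 0.879 TPM and its W2 libraries 1.06, 1.20, 1.15 and 1.61 TPM. At W3.0 the values were 0.816, 1.13, 1.11 and 0.434 TPM. The W3.0 libraries overlapped with both earlier stages, and W3.0 replicate 4 was about as low as the lowest W1 library, each with 6 reads. Its W3.25 libraries had 2.04, 2.23, 2.86 and 2.59 TPM and its W3.5 libraries 1.77, 2.92, 2.08 and 3.15 TPM. Every library of these 2 stages lay above every library of the first 3. The means ± SD (n = 4) were 0.734 ± 0.248, 1.25 ± 0.242, 0.872 ± 0.325, 2.43 ± 0.363 and 2.48 ± 0.662 TPM.

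WAPO-B1 showed the same order of the first 3 stages at a higher level. It had 1.70, 2.43, 3.11 and 3.05 TPM at W1 and 5.17, 4.00, 3.43 and 4.02 TPM at W2. At W3.0 it had 4.40, 3.15, 2.38 and 3.56 TPM. The W3.0 range spanned parts of both earlier stages. The W3.25 libraries had 5.30, 5.90, 5.70 and 6.82 TPM, and the W3.5 libraries 4.78, 6.13, 4.68 and 6.92 TPM. All W3.25 libraries exceeded all libraries of the first 3 stages, whereas 2 of the W3.5 libraries lay below the highest W2 library. The means ± SD (n = 4) were 2.57 ± 0.659, 4.15 ± 0.728, 3.37 ± 0.842, 5.93 ± 0.646 and 5.63 ± 1.09 TPM.

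**Figure D1:**
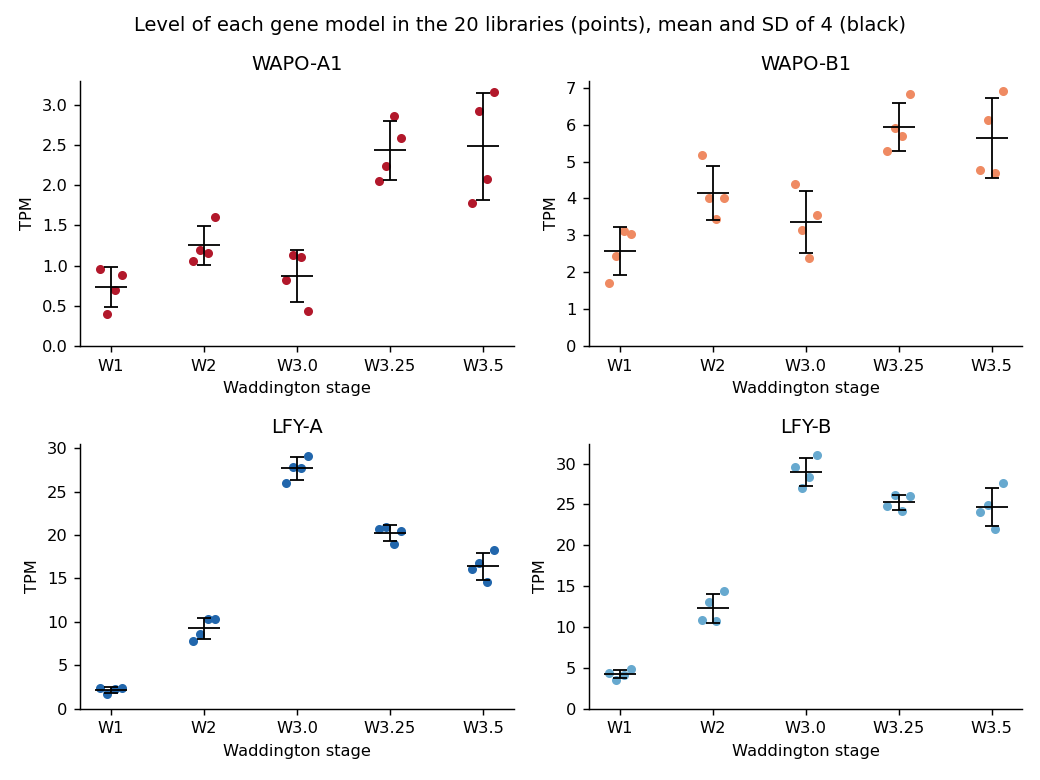
TPM (vertical axis, from 0, a separate scale in each panel) of WAPO-A1, WAPO-B1, LFY-A and LFY-B at the 5 Waddington stages, with 1 point per library and the mean ± SD of 4 libraries in black. LFY-A and LFY-B peak at W3.0 (27.7 and 29.0 TPM), whereas both WAPO1 copies have their highest means at the last 2 stages (2.43 and 2.48 TPM for WAPO-A1, 5.93 and 5.63 TPM for WAPO-B1).

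The question of whether each gene changed over the time course was tested with the F test of edgeR over the 5 stages. All 4 genes passed at an adjusted p of 0.05, with values of 1.94e-05 for WAPO-A1, 8.15e-05 for WAPO-B1, 1.35e-18 for LFY-A and 6.97e-17 for LFY-B. The same test passed 63.1% of all gene models. Each gene remained past the threshold when any 1 library was left out (highest adjusted p 0.000321, for WAPO-B1).

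From W1 to W2, both LFY copies were upregulated and neither WAPO1 copy was a DEG. LFY-A rose 3.90-fold (log2 1.96 ± 0.12 SE, adjusted p 1.14e-12 in edgeR) and LFY-B rose 2.68-fold (log2 1.42 ± 0.11, adjusted p 1.05e-10). The log2 fold changes of WAPO-A1 and WAPO-B1 were 0.64 ± 0.31 (adjusted p 0.122) and 0.60 ± 0.19 (adjusted p 0.0170, and 0.0154 in DESeq2). All 4 genes had every W2 library above every W1 library, including both WAPO1 copies, whose W1 maxima were 0.960 and 3.11 TPM and whose W2 minima were 1.06 and 3.43 TPM. Of all tested gene models, 31.1% had no overlap between W1 and W2 libraries. With 2 of 4 genes called, the background at this step was 22.9% of gene models called in either direction, 8.3% higher and 14.6% lower at W2.

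Markers of green tissue moved at the same step. The summed level of the photosystem I subunit IV pair (TraesCS5A02G482800 and TraesCS5B02G496000), which the study picked out on these same samples, was 28.8 to 51.0 TPM over the W1 libraries and 101 to 123 TPM over the W2 libraries, and 83.8 to 104 TPM in later libraries. Both genes of the pair rose from W1 to W2, both fell from W2 to W3.0, by 1.29-fold and 1.35-fold, and neither was at 0 in any library. Their part in the changes of LFY and WAPO1 at these steps was not tested. In bulk RNA of this kind, more cells that express a gene and more RNA per cell cannot be told apart.

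From W2 to W3.0 the 2 families parted. LFY-A rose 2.85-fold (log2 1.51 ± 0.09, adjusted p 1.29e-12) and LFY-B rose 2.25-fold (log2 1.17 ± 0.09, adjusted p 1.27e-10). The fitted changes of WAPO-A1 and WAPO-B1 were -0.58 ± 0.31 (adjusted p 0.175) and -0.38 ± 0.19 (adjusted p 0.135) on the log2 scale, with overlapping libraries in both genes. Their 95% intervals reached from -1.22 to 0.06 for WAPO-A1 and from -0.76 to 0.00 for WAPO-B1, which leaves a rise as large as that of either LFY copy outside both. Of the 4 genes 2 were called, both higher, where the background was 19.2% of gene models called, 7.64% higher and 11.6% lower at W3.0. The same 2 were without overlap, as were 31.8% of gene models.

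At the next step, W3.0 to W3.25, 1 gene of each pair was called, in opposite directions. WAPO-A1 was upregulated 2.71-fold (log2 1.44 ± 0.28, adjusted p 0.00474 in edgeR and 0.000688 in DESeq2) and LFY-A was downregulated 1.39-fold (log2 -0.48 ± 0.08, adjusted p 0.00156). WAPO-B1 was not a DEG at 1.74-fold (log2 0.80 ± 0.18), with an adjusted p of 0.0144 in edgeR and 0.00311 in DESeq2. LFY-B had a log2 fold change of -0.22 ± 0.09 (adjusted p 0.265). Of the 4 genes 2 were called, and all 4 had non-overlapping libraries, where the background was 0.821% of gene models called, 0.474% higher and 0.348% lower at W3.25, and 7.36% of gene models had no overlap.

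The WAPO-A1 call was kept in 15 of the 20 fits that left out 1 library. Most of these 15 left out a library of a stage that was not compared. Among the libraries of W3.0 and W3.25, the call was kept only without W3.0 replicate 2 or 3 or W3.25 replicate 1. Its adjusted p in edgeR was 0.0155 without W3.0 replicate 1, 0.0291 without W3.0 replicate 4 and 0.0106, 0.0270 or 0.0179 without W3.25 replicate 2, 3 or 4, and the log2 fold change stayed between 1.22 and 1.58 over all 20 libraries left out in turn. The LFY-A call was lost without W3.25 replicate 3 (adjusted p 0.0122), with a log2 fold change between -0.50 and -0.45. WAPO-B1 was gained without W1 replicate 1 (adjusted p 0.00758) or W3.0 replicate 1 (0.00551).

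From W3.25 to W3.5, 0 of the 4 genes were called by both tools, where the background was 0.701% of gene models called, 0.288% higher and 0.414% lower at W3.5. DESeq2 alone called 1 of them, LFY-A, which was also the 1 gene at an unadjusted p under 0.05 in edgeR, with a log2 fold change of -0.36 ± 0.09 and adjusted p-values of 0.0251 in edgeR and 0.00546 in DESeq2. LFY-A was also the only one of the 4 whose libraries did not overlap, which held for 11% of gene models, and without W1 replicate 1 it was called (adjusted p 0.00884). The 95% intervals of the log2 fold change were -0.55 to 0.46 for WAPO-A1, -0.49 to 0.21 for WAPO-B1 and -0.27 to 0.08 for LFY-B. 

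**Figure D2:**
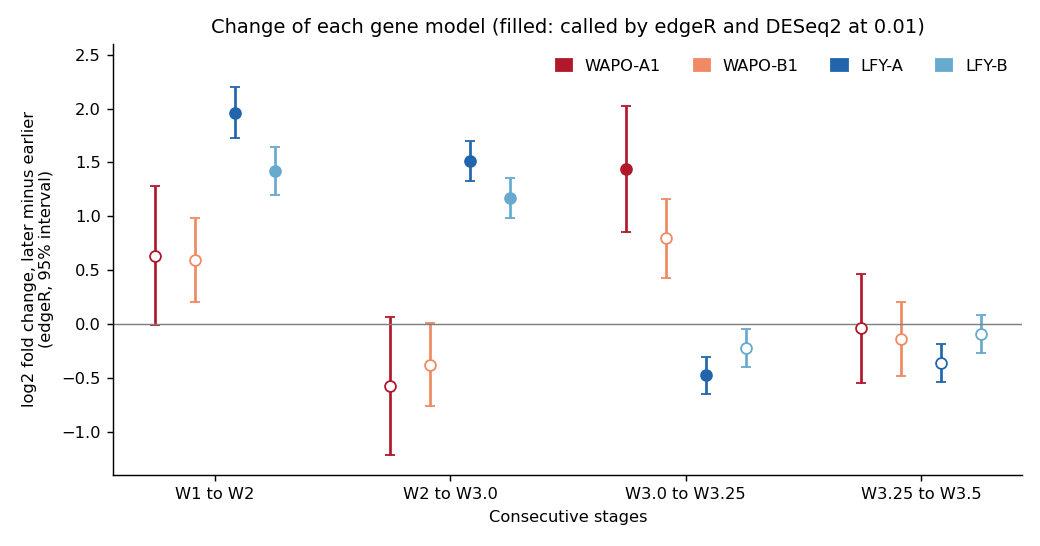
Log2 fold change of each gene over the 4 consecutive steps, later minus earlier stage, from edgeR with 95% intervals, with filled points for genes called by both edgeR and DESeq2 at 0.01. LFY-A and LFY-B are above 0 at the first 2 steps (1.96 and 1.42, then 1.51 and 1.17), and at W3.0 to W3.25 WAPO-A1 lies at 1.44 while LFY-A lies at -0.48.

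The 6 comparisons over more than a single step set the ends of the time course against each other. From W1 to W3.25 all 4 genes were called higher, where the background was 46.4% of gene models called, 20.7% higher and 25.6% lower. From W1 to W3.5 all 4 were called higher as well, where it was 49.2%, 22.3% higher and 26.9% lower. Libraries did not overlap in any of the 4 genes in these comparisons, nor in 54.4% and 59.2% of gene models. WAPO-A1 was 2.82-fold and 2.74-fold higher than at W1 (adjusted p 7.26e-05 and 9.78e-05), and WAPO-B1 2.02-fold and 1.83-fold (adjusted p 3.57e-05 and 0.000217). LFY-A was 7.97-fold and 6.20-fold higher, and LFY-B 5.15-fold and 4.82-fold. From W1 to W3.0 the background was 44% of gene models called, 19.3% higher and 24.7% lower, and 2 of the 4 genes were called: LFY-A was 11.1-fold and LFY-B 6.01-fold higher, and WAPO-A1 and WAPO-B1 had log2 fold changes of 0.06 ± 0.33 and 0.22 ± 0.20 and were not called. Only the LFY copies were without overlap there, as were 51.5% of gene models.

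From W3.0 to W3.5, where 6.27% of gene models were called (2.86% higher and 3.41% lower) and 20% had no overlap, WAPO-A1 was 2.63-fold higher (adjusted p 0.00129) and LFY-A 1.79-fold lower (adjusted p 1.17e-07). WAPO-B1 (log2 0.66 ± 0.18, adjusted p 0.0159) and LFY-B (log2 -0.32 ± 0.09, adjusted p 0.0135) missed the threshold in edgeR but not in DESeq2 (adjusted p 0.00832 and 0.00774). From W2 to W3.25 and from W2 to W3.5 both LFY copies were called higher, by 1.59-fold to 2.05-fold. WAPO-A1 missed the threshold in both comparisons at 1.81-fold and 1.76-fold (adjusted p 0.0152 and 0.0178), with no overlap of libraries, and would be called at 0.05. WAPO-B1 had 1.33-fold and 1.21-fold (adjusted p 0.0696 and 0.221). The background was 21.9% of gene models called from W2 to W3.25 (9.06% higher and 12.9% lower) and 27% from W2 to W3.5 (11.1% higher and 15.9% lower). Libraries did not overlap in 36.1% of gene models in the former comparison and in 44.2% in the latter.

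Ordered by level, LFY-A ran W1, W2, W3.5, W3.25, W3.0 from lowest to highest, and of the neighbours in this order W3.5 and W3.25 were not told apart by both tools. LFY-B had the same order, in which W3.25 was not told apart from W3.5 below it or from W3.0 above it. WAPO-A1 ran W1, W3.0, W2, W3.25, W3.5 and WAPO-B1 ran W1, W3.0, W2, W3.5, W3.25, and no neighbours in either order passed both tools. Of the 10 pairs of stages, 9 were called for LFY-A, 7 for LFY-B, 4 for WAPO-A1 and 2 for WAPO-B1.

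The next question was whether the A and B copies of each gene changed together. The log2 ratio of A to B copy was taken within each library from TPM with a pseudocount of 0.5. In WAPO1 the B copy was higher in all 20 libraries, with a mean log2 ratio of -1.28 (exact sign-flip permutation test over 20 libraries, two-sided p 1.91e-06, the smallest it can give, adjusted over 2 pairs 3.81e-06). A fixed difference between 2 copies in how many reads place uniquely would recur in every library. Its part in this test, and in the same test of LFY, was not tested. The size of the ratio also depends on the pseudocount. WAPO-A1 made up on average 22.7%, 23.4%, 21.2%, 29.0% and 30.3% of the summed WAPO1 level over the stages in order, with SDs (n = 4) of 9.53, 4.84, 9.60, 2.90 and 2.30 percentage points. None of the 4 steps of this ratio was distinguishable from the spread between libraries. The largest, from W3.0 to W3.25, was 0.37 on the log2 scale (exact permutation test, p 0.400, adjusted over 8 steps 0.571), and the share of single W3.0 libraries ran from 10.9 to 31.8%.

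In LFY the B copy was higher in 19 of 20 libraries, with a mean log2 ratio of -0.43 (exact sign-flip permutation test, p 5.72e-06, adjusted 5.72e-06). This order depends on dividing by gene span, introns included. With CPM, which is not per length, the B copy was higher in 15 of 20 libraries (mean -0.21, exact p 0.00574), and the direction turned at W3.0, where LFY-A was higher in 4 of 4 libraries (mean 0.17). LFY-A made up 34.0 ± 1.84% of the summed LFY level in the W1 libraries, 43.1 ± 4.01% in W2 and 48.8 ± 1.65% in W3.0, when both copies were nearly equal (mean ± SD, n = 4). The share was then 44.4 ± 0.763% (W3.25) and 39.96 ± 0.165% (W3.5). The W3.5 libraries had 40.1, 40.2, 39.8 and 39.8%, the narrowest range of the 5 stages.

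The LFY libraries did not overlap in this ratio from W1 to W2 (log2 change 0.43), from W3.0 to W3.25 (-0.25) or from W3.25 to W3.5 (-0.26). Each of these 3 steps had the smallest p that 4 against 4 libraries can give in an exact permutation test (0.0286). Adjusted over the 8 steps of both pairs this became 0.0762, so none passed 0.05. The 4 LFY steps could not have passed by themselves, since the smallest p in all 4 would still miss 0.05 after adjustment. The missed threshold therefore does not show that the LFY ratio stayed the same. From W2 to W3.0 the change was 0.32 (exact p 0.0857, adjusted 0.171), and W2 replicate 3 stood apart from the other W2 libraries with a share of 48.9% against 39.7 to 41.9%.

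**Figure D3:**
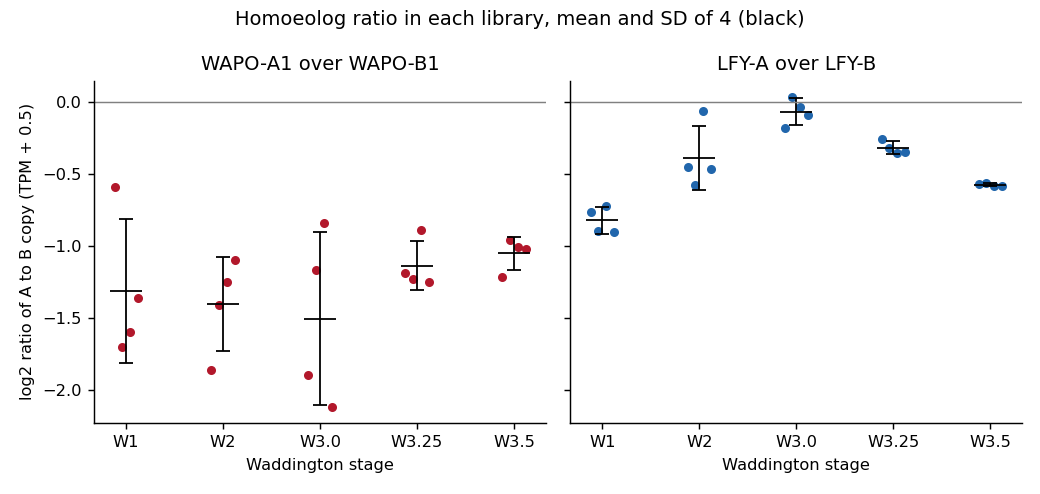
Log2 ratio of A to B copy (TPM plus 0.5) in each library for WAPO1 (left) and LFY (right) by stage, with the mean ± SD of 4 libraries in black and a line at 0 where the copies are equal. All 20 WAPO1 points lie below 0 with a wide spread up to W3.0, and the LFY points climb from a mean of -0.82 at W1 to -0.07 at W3.0 and return to -0.57 at W3.5.

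WAPO1 and LFY were then compared within each library, since in Arabidopsis their relatives act together. The summed level of the LFY copies was 1.99 ± 0.398 times that of the WAPO1 copies in the W1 libraries, 4.04 ± 0.708 times in W2 and 13.7 ± 2.42 times in W3.0 (mean ± SD, n = 4). It was 5.49 ± 0.604 times in the W3.25 and 5.17 ± 0.749 times in the W3.5 libraries. The single libraries had 2.57, 1.86, 1.69 and 1.82 times at W1 and 3.01, 4.17, 4.59 and 4.39 times at W2. At W3.0 they had 10.6, 12.8, 16.1 and 15.1 times. All W3.0 libraries lay above those of every other stage. The later stages overlapped, with 4.93 to 6.20 times (W3.25) and 4.55 to 6.13 times (W3.5). These multiples depend on dividing by gene span, introns included, and the LFY spans are the longer ones. With CPM, which is not per length, the multiples are larger. In W1 replicate 1, LFY-A and LFY-B had 4.44 and 6.91 CPM, against 0.667 and 1.30 CPM for WAPO-A1 and WAPO-B1.

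The log2 ratio of summed WAPO1 to summed LFY changed by -1.03 from W1 to W2, by -1.70 from W2 to W3.0 and by 1.22 from W3.0 to W3.25. Each of these steps passed at an adjusted p of 0.0381 over 4 steps (exact permutation test, 4 against 4, p 0.0286, the smallest possible), and none of them overlapped. From W3.25 to W3.5 the change was 0.09 (exact p 0.429, adjusted 0.429). The 2 families thus differed in their change at the first 3 steps, by factors of 2.04, 3.255 and 2.33. From W3.0 to W3.25 the summed WAPO1 level went from 4.24 ± 0.725 to 8.36 ± 0.863 TPM while the summed LFY level went from 56.7 ± 2.39 to 45.5 ± 1.69 TPM.

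**Figure D4:**
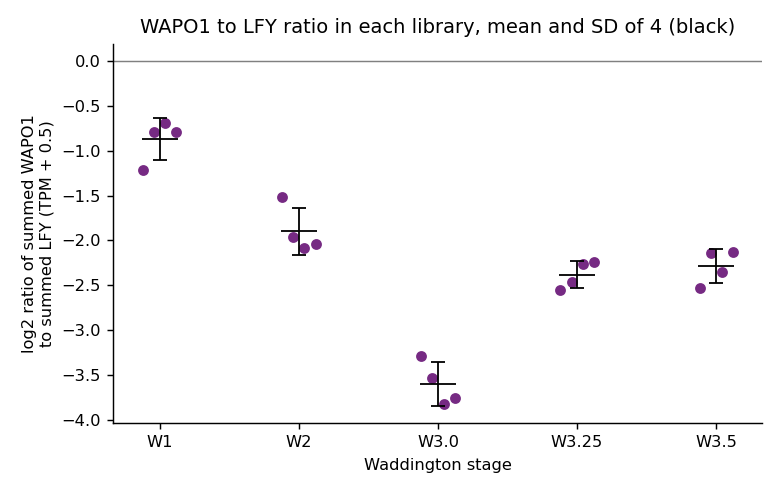
Log2 ratio of summed WAPO1 to summed LFY level (TPM plus 0.5) in each of the 20 libraries by stage, with the mean ± SD of 4 libraries in black. The ratio falls from a mean of -0.87 at W1 to -3.60 at W3.0 without overlap between stages, and the last 2 stages lie at -2.38 and -2.29.

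The 4 genes were set beside 15 gene models that the study names with an identifier in its text or its network of spike development. This list was picked by the study from these same libraries, so its directions are not independent evidence. Of the 15, 14 were tested. They are 2 PISTILLATA-like (PI) genes of the B class, 2 AP1-clade genes, 2 MADS32 genes, SVP-B2, the TtCLV3 pair and 5 SPL genes, and TtWUSb, a WUSCHEL relative, fell below the filter. From W1 to W2, 8 were called higher and 0 lower, against 8.3% and 14.6% of all gene models (median log2 fold change 1.14 against 0.00). From W2 to W3.0, 10 were called higher and 1 lower, against 7.64% and 11.6% (median 1.03 against 0.01). From W3.0 to W3.25, 3 were called higher and 4 lower, against 0.474% and 0.348% (median 0.10 against 0.00). From W3.25 to W3.5, 2 were called higher and 4 lower, against 0.288% and 0.414% (median 0.03 against 0.00).

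The AP1-clade genes, which promote the inflorescence and spikelet meristem, rose at the same 2 steps as LFY. This was not particular to them, since MADS32-A1 and all SPL genes of the list were called higher at both steps too. The SPL genes on 6A, 7A and 7B also had their highest stage mean at W3.0, whereas AP1-B1 was highest at W3.25 and AP1-A3 at W3.5. AP1-B1 rose 9.30-fold from W1 to W2 and 2.02-fold from W2 to W3.0, and AP1-A3 rose 17.2-fold and 3.24-fold. After W3.0 neither was called at either single step, while LFY-A was called lower at W3.25. Their log2 fold changes were 0.06 and 0.29 from W3.0 to W3.25 and -0.13 and 0.04 from W3.25 to W3.5. Over both steps together, from W3.0 to W3.5, AP1-A3 was called 1.25-fold higher (adjusted p 0.00788 in edgeR and 0.00165 in DESeq2). AP1-B1 was not called there (log2 -0.07).

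The PI genes, B-class MADS-box genes of lodicules and stamens, were called at neither of the first 2 steps, although over both together, from W1 to W3.0, PI-B1 was called 1.35-fold higher (adjusted p 0.00424). PI-A1 rose 2.01-fold and PI-B1 1.66-fold from W3.0 to W3.25, the step at which WAPO-A1 was upregulated, and they rose again from W3.25 to W3.5, from 13.8 to 33.2 TPM and from 3.78 to 7.89 TPM, where WAPO-A1 and WAPO-B1 had log2 fold changes of -0.04 and -0.14. MADS32-B1, a MADS-box gene of a monocot clade, rose 3.02-fold from W2 to W3.0 and 1.58-fold from W3.0 to W3.25. Its A copy, MADS32-A1, rose 1.62-fold from W1 to W2 and 3.44-fold from W2 to W3.0. MADS32-A1 was not called from W3.0 to W3.25 (log2 0.38, adjusted p 0.0971 in edgeR and 0.264 in DESeq2). SVP-B2, a MADS-box gene of the SVP clade, named for the vegetative phase in Arabidopsis, fell 2.06-fold from W2 to W3.0, 1.48-fold from W3.0 to W3.25 and 1.70-fold from W3.25 to W3.5. At the last 2 steps the other 3 genes that fell were SPL genes on 6A, 7A and 7B. They fell by 1.32-fold to 1.71-fold from W3.0 to W3.25, the step at which LFY-A was downregulated. From W3.25 to W3.5 they fell by 0.40 to 0.58 on the log2 scale. The SPL genes on 2A and 2B were called at neither step and were highest at W3.5. Their log2 fold changes were 0.15 and 0.13 from W3.0 to W3.25, and 0.13 and 0.15 from W3.25 to W3.5. SPL genes encode transcription factors of phase change and inflorescence architecture.

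**Figure D5:**
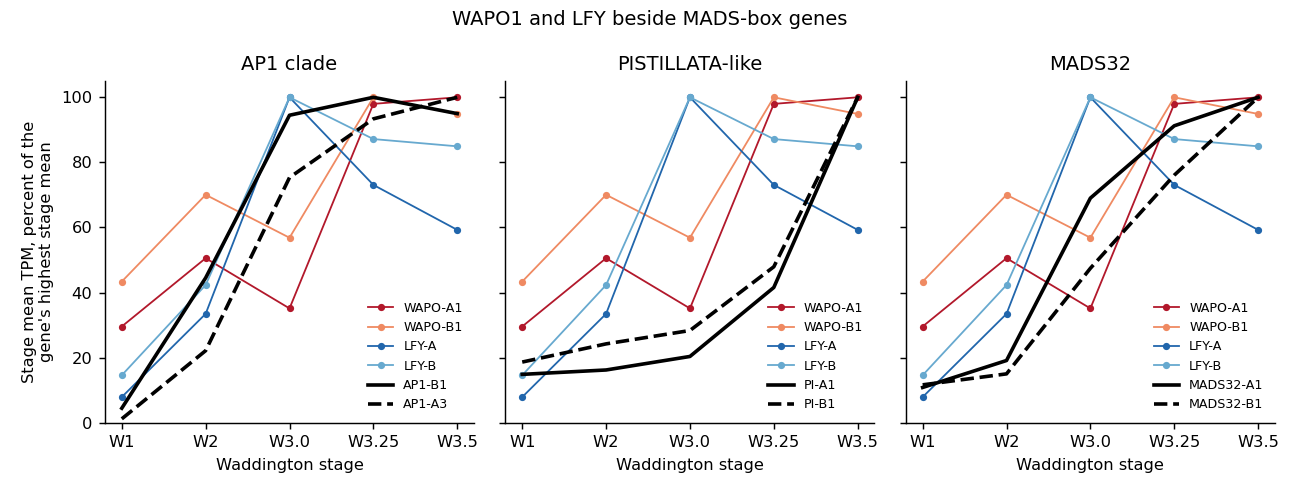
Stage mean TPM of WAPO-A1, WAPO-B1, LFY-A and LFY-B as a percent of each gene's highest stage mean, repeated in 3 panels beside AP1-clade, PISTILLATA-like and MADS32 genes (black lines). LFY-A and LFY-B reach 100% at W3.0, where WAPO-A1 is at 35.1% and WAPO-B1 at 56.9%, and LFY-A ends at 59.3% at W3.5.

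Genes with the most similar course were sought by Pearson correlation of log2 CPM over the 20 libraries with each of the 40909 other tested gene models that had a mean of at least 1 TPM. These values describe profiles that share libraries and stages, and carry no test. For LFY-A the first was TraesCS1B02G402400 (r = 0.993), with stage means of 1.99, 7.74, 21.3, 15.8 and 12.4 TPM, and LFY-B was number 3 (r = 0.987). For LFY-B the nearest 3 had r of 0.988 to 0.989 and LFY-A was number 6. For WAPO-A1 the first was TraesCS6A02G282800 (r = 0.823), with stage means of 41.2, 46.6, 47.4, 51.3 and 54.4 TPM, and WAPO-B1 was only number 182 (r = 0.71). For WAPO-B1 the nearest 3 had r of 0.83 to 0.86 and WAPO-A1 was number 308. The files do not pair these identifiers with names.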

How the data were processed

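RNA was measured in 20 libraries from pooled Kronos apices, 4 at each of 5 stages. After trimming with Fastp, the authors aligned the 100 bp reads with STAR 2.7.5 to the A, B and unanchored sequences of IWGSC RefSeq v1.0, and deposited raw counts per gene model of the v1.1 annotation. Per the file headers these counts were made with featureCounts 2.0.0, without strand, over whole gene spans and at a mapping quality minimum of 40, and a read that touched several gene models went unassigned. The 79047 D-genome models, with 0 counts in all, were left out. All sample columns were mapped to a library by title.

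TPM was computed from the counts and the gene span of the deposited table. Tests used edgeR 4.0.16 and DESeq2 1.42.0 (R 4.3.3) in a fit of all 20 libraries with stage as factor (15 residual degrees of freedom), after filterByExpr (minimum count 10, minimum total count 15), with Benjamini-Hochberg adjustment over 48336 gene models. The edgeR tests were quasi-likelihood tests on TMM-scaled counts, and errors of log2 fold changes are their SE. ImpulseDE2, which the study used for change over time, was not installed, and the F test over 5 stages took its place. Ratios used Python 3.11.15. The permutation tests enumerated all 70 splits of 4 against 4 libraries, or all sign changes over 20 libraries, two-sided with a threshold of 0.05. The pipeline was tested on simulated data.

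The genes, lists and tests were chosen with earlier results of these data known. The rule for genes named outside the 4 was membership of the list of 15, the marker genes of green tissue and apex, or the 3 most similar profiles per gene, of which 1 unnamed identifier each is printed for LFY-A and WAPO-A1. Alternatives changed the normalization, the filter, the tool, the threshold, the libraries in the fit, the replicate number as a block, the pseudocount (0.1 or 2), the unit of the ratios and the prior count (0.5), and left out each library in turn. No sequences are printed, because no table of them for these gene models was used here.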

Additional observations from a re-analysis of the deposited data

Results flagged for a closer look

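In 35 sets of 4 libraries (the 4 genes and 3 log2 ratios at 5 stages), 2 held a library far from the other 3 by Dixon's criterion for 4 values, and chance alone gives about 1 in 20. LFY-A in W1 replicate 2 was at 1.68 TPM against 2.31 to 2.41 TPM in the other W1 libraries. The WAPO1 log2 ratio of A to B copy in W3.25 replicate 3 was -0.89 against -1.25 to -1.19 in the other W3.25 libraries. W3.25 replicate 3 was also the library without which both the WAPO-A1 and the LFY-A calls from W3.0 to W3.25 missed the threshold. Over all gene models, 397 were called at this step, against 234 without W3.25 replicate 3. Without another library of W3.0 or W3.25 it was 228 to 371, so a loss of calls was not particular to this library.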

How the results depend on the processing

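0 of the alternatives reversed a called direction. From W1 to W2, WAPO-B1 (log2 0.60) was called at a threshold of 0.05. From W3.0 to W3.25, WAPO-B1 was called with no filter (0.80), by DESeq2 alone (0.80) and at 0.05 (0.80), and with libraries left out its values ran from 0.66 to 0.95. Over the same libraries WAPO-A1 ran from 1.22 to 1.58 and was called in 15 of 20 fits, and LFY-A ran from -0.50 to -0.45 and was called in 19. Every fit that lost either call left out a library of W3.0 or W3.25, the stages compared. From W3.25 to W3.5, LFY-A was called with no filter (-0.36), in a fit of the 2 stages alone (-0.36), by DESeq2 alone (-0.36) and at 0.05 (-0.36), and ran from -0.42 to -0.30 with libraries left out. The cause of these changes was not tested. Scaling by library totals moved the median log2 fold change of all gene models from W1 to W2 to 0.10 and from W1 to W3.5 to 0.22, and changed no call of the 4 genes. The mean log2 WAPO1 ratio of A to B copy was -1.53 with a pseudocount of 0.1 and -0.83 with 2. The steps of the WAPO1 to LFY ratio passed or missed 0.05 alike with either pseudocount and with CPM. With any 1 of the 20 libraries left out, the first 3 steps of that ratio passed (exact permutation test, adjusted p 0.0381) and the last did not. These 3 steps had no overlap, and leaving out a library cannot create any, so this is a weak check. Likewise 0 of the 8 homoeolog steps passed with a library left out, where the LFY steps could not have passed by themselves. By Spearman correlation 0, 0, 1 and 0 of the 3 most similar genes of WAPO-A1, WAPO-B1, LFY-A and LFY-B were kept.

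Replicate numbers are shared between stages. Deviations from the stage means correlated by -0.10 to 0.20 (median 0.00) between same-numbered libraries, and by -0.17 to 0.20 (median -0.01) between different-numbered ones. Of 20 libraries, 5 correlated best with their own number. No pairing by number was thus seen in the counts, which cannot show whether same-numbered pools were grown together. With the replicate number as a block, LFY-B was called from W3.0 to W3.5 (log2 -0.32, adjusted p 0.00493 in edgeR), and no other call of the 4 genes changed. Depth limits WAPO-A1 most, with 6 to 48 reads per library.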

Other observations

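After subtraction of stage means, the correlation of log2 CPM over the 20 libraries was 0.72 between LFY-A and LFY-B and -0.07 between WAPO-A1 and WAPO-B1. WAPO-A1 had 0.54 with LFY-A and 0.48 with LFY-B, and WAPO-B1 had -0.13 and 0.15. These values are a description with no test. WAPO-A1 was read 6 to 48 times per library. The nearest gene model downstream of WAPO-A1 begins 7709 bp away and had 75 reads over all libraries, and the one downstream of WAPO-B1 begins 39681 bp away and had 83. The gene model 6958 bp downstream of LFY-B averaged 226 TPM, several times the LFY-B peak, and that 6328 bp downstream of LFY-A had 1 read.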
